A study of Mus musculus with 6 samples.

Results

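Carboxypeptidase E (*Cpe*), its relative carboxypeptidase D (*Cpd*) and 6 proprotein convertases (*Furin*, *Pcsk1*, *Pcsk2*, *Pcsk5*, *Pcsk6* and *Pcsk7*) were described across organoids of the mouse esophagus and stomach. *Cpe* was picked by its high log2 value in the esophagus arrays, and the other 7 genes were added as enzymes of the same processing route. All 8 gene names were on the array, with 13 of its 55681 distinct probes, 1 spot each. The whole array carried 34298 gene names.

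Many secreted and membrane proteins are made as longer precursors. Proprotein convertases, serine proteases related to bacterial subtilisin and yeast kexin, cut these precursors after basic residues, and carboxypeptidases E and D then trim the basic residues left at the new end. *Pcsk1* and *Pcsk2* work in the dense-core granules of endocrine and neural cells, where they make peptide hormones with *Cpe*. *Furin*, *Pcsk5*, *Pcsk6*, *Pcsk7* and *Cpd* work in the trans-Golgi network, at the cell surface or outside the cell of many cell types and act on growth factors, receptors and adhesion proteins.

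The series holds 6 single-color Agilent arrays, 3 of esophageal and 3 of stomach epithelial organoids, all labelled P0 and control, from mice numbered 1, 2 and 4 in each tissue. Harvest was on day 8 in 5 cultures and on day 7 in the stomach culture of mouse 4. The study's methods name wild-type female C57BL/6 mice, whereas the labels of these arrays give neither strain nor age. By the study's methods, esophageal organoids grew from dissociated cells and stomach organoids from isolated corpus glands. The stomach medium given there held WNT3A, R-spondin1 and gastrin, and the esophagus medium held forskolin in their place. Both media held EGF, noggin, FGF-10, a TGF-β receptor kinase inhibitor and a ROCK inhibitor. The labels of these arrays name no medium, and the study also grew esophageal organoids with WNT3A and R-spondin1. Tissue and medium cannot be told apart here. Each array is RNA of a whole culture, in which fewer cells expressing a gene and less RNA per cell cannot be told apart.

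Markers of the epithelia were on the side their labels give. All 6 squamous markers (*Krt5*, *Krt13*, *Krt14*, *Krt15*, *Col17a1* and *Lgals7*) were higher in the esophagus, and all 7 columnar markers (*Krt8*, *Krt18*, *Krt7*, *Muc6*, *Pgc*, *Agr2* and *Gkn1*) were higher in the stomach (limma, adjusted p at most 0.00224). *Furin*, which the study uses as a columnar marker, is not in this list and is described with the convertases. Between 45.5% and 51.1% of the non-control spots were well above background on each array, and none was saturated. The esophagus array of mouse 4 was alone on a second slide.

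The values below are log2 values that the authors background corrected and quantile normalized. A value is called well above background where the scanner software marked it so, and levels of different probes are not compared, because each probe binds with its own strength. Differences are esophagus minus stomach on the log2 scale, tested over all 55681 probes with limma, the mouse left out of the model, and called at an adjusted p under 0.05 (Benjamini-Hochberg). The intervals given are 95% intervals that are not adjusted for the number of probes. *Cpe* was not tested, since its value in this contrast was the reason for its choice. With 3 arrays a tissue, the number of arrays limits the precision.

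Where the probes lie decides what they can show for *Cpe*, *Cpd* and *Pcsk5*, and 4 probes on which the results turn are printed here 5′ to 3′ from the scanner files. Each has a reading frame without an internal stop codon. Positions are those of the files on mm9. The capitals mark a TAA codon at the end of the *Pcsk5* probe, the only stop codon in its reading frame.
*Cpe*, A_55_P2152248, chr8:67085401-67085460, minus strand: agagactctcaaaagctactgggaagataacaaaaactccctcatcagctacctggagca
*Cpd*, A_52_P359965, chr11:76595750-76595809, minus strand: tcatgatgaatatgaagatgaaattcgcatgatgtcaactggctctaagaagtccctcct
*Pcsk5*, A_52_P544043, chr19:17638365-17639236, minus strand: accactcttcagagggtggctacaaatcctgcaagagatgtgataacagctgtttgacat
*Pcsk5*, A_55_P2167274, chr19:17507883-17507942, minus strand: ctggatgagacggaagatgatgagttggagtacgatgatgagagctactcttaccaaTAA

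The first of these *Pcsk5* probes covers 60 bases of transcript spread over 872 bases of genome, so it crosses an exon junction. The scanner files assign it to the transcripts NM_001163144 and NM_001190483. The other *Pcsk5* probe is assigned to NM_001190483 and not to NM_001163144, and therefore reads only the end of the longer transcript. The remaining *Cpe* probes, A_55_P2024704 (chr8:67071349-67071408) and A_55_P2025038 (chr8:67071401-67071460), lie 14000 bases farther along the gene's strand and share 8 bases. A_55_P2024704 contains AATAAA, the usual polyadenylation hexamer, which 10.1% of all 60-base probes contain on the printed strand and 3.74% on the other strand.

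*Cpe*, the carboxypeptidase of hormone-producing granules, was bright on every esophagus array and dim on every stomach array. Probe A_55_P2024704 (NM_013494) read 15.09, 14.66 and 14.68 in esophageal organoids of mice 1, 2 and 4 and 6.25, 6.43 and 6.68 in stomach organoids. Probe A_55_P2025038 read 15.08, 14.65 and 14.83 in the esophagus against 6.41, 6.10 and 6.41 in the stomach. These neighboring probes were well above background on all 6 arrays, and the tissues did not overlap in either. Their differences were 8.36 and 8.55, or 328-fold and 374-fold, as a description of the gene that was picked.

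The *Cpe* probe farther inside the gene, A_55_P2152248, read 10.81, 9.97 and 10.25 in the esophagus and 4.69, 4.95 and 4.98 in the stomach. In the stomach it never rose well above background, so its ratio is a bound: by this probe the esophagus level of *Cpe* exceeded the stomach level at least 44.3-fold. Such bounds set the mean of the bright tissue against the mean, over the dim tissue's arrays, of the probe's own value or the lowest value well above background, whichever was higher. The bound moves with the treatment of background: the difference of A_55_P2152248, 5.47 here, was 4.35 with a normexp offset of 50. With the processed signal it was 8.45. All 3 probes had their highest esophagus value in mouse 1. Within mice, the difference of probe A_55_P2024704 was 8.84, 8.23 and 8.0 for mice 1, 2 and 4, and that of A_55_P2025038 was 8.67, 8.55 and 8.42.

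**Figure D1:**
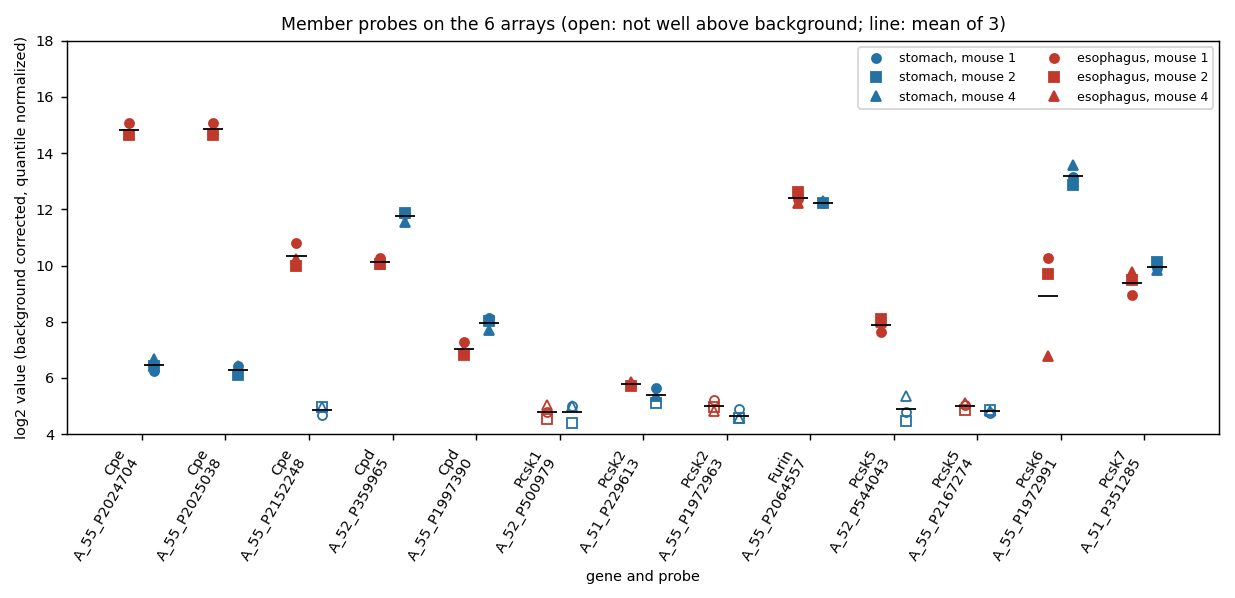
Log2 values (vertical axis) of the 13 probes of the 8 genes on the 6 arrays, esophagus in red and stomach in blue, with a symbol for each mouse, open symbols where the spot was not well above background and a line at the mean of 3 arrays. The *Cpe* probes are far apart between the tissues, *Pcsk1* overlaps near 4.80 in both, and the esophagus array of mouse 4 is low for *Pcsk6* at 6.78.

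*Cpd*, the membrane-bound carboxypeptidase of the trans-Golgi network, was lower in the esophagus with both of its probes. Probe A_52_P359965 (NM_007754) read 10.26, 10.04 and 10.07 in esophageal organoids of mice 1, 2 and 4 and 11.83, 11.88 and 11.54 in stomach organoids. The tissues did not overlap, and the difference was -1.63 (standard error 0.16, limma adjusted p = 0.000383), or 3.09-fold toward the stomach. Probe A_55_P1997390 (chr11:76590710-76590769) read 7.27, 6.81 and 6.98 against 8.15, 8.01 and 7.69, again without overlap. Its difference was -0.93 (standard error 0.19, limma adjusted p = 0.0167), which fell short of the threshold without stomach mouse 1, stomach mouse 2 or esophagus mouse 2 (limma adjusted p = 0.0819, 0.0751 and 0.0616). Within each of the 3 mice, both *Cpd* probes were lower in the esophagus.

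The dense-core granule convertases *Pcsk1* and *Pcsk2* gave little signal. *Pcsk1* (NM_013628, chr13:75269727-75269786), which makes the first cuts in many prohormones, stayed near background on all 6 arrays. It read 4.80, 4.55 and 5.05 in the esophagus and 4.99, 4.40 and 4.99 in the stomach, values that overlap and for which no fold is given. *Pcsk2*, which makes later cuts, has a probe at chr2:143639649-143639708 (A_51_P229613, NM_008792) that was well above background on 3 of 3 esophagus and 2 of 3 stomach arrays. It read 5.76, 5.72 and 5.84 in the esophagus and 5.64, 5.12 and 5.37 in the stomach, close to background throughout. The tissues did not overlap, by 0.08, and the difference of 0.40 (interval 0.00 to 0.79) was not called (limma adjusted p = 0.209). The other *Pcsk2* probe, A_55_P1972963, passed the background mark on no array.

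*Furin* (NM_011046, chr7:87534082-87534141), the widely expressed convertase of the trans-Golgi network, was bright and lay between 12.22 and 12.63 on all 6 arrays. It read 12.37, 12.63 and 12.23 in esophageal organoids of mice 1, 2 and 4 and 12.22, 12.23 and 12.28 in stomach organoids. The tissues overlapped. The difference of 0.17 (interval -0.20 to 0.53, limma adjusted p = 0.609) was within the spread of the esophagus arrays (SD 0.20, n = 3).

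*Pcsk5*, a convertase that also acts at the cell surface, was higher in the esophagus by the probe its transcripts share. A_52_P544043 read 7.63, 8.09 and 7.99 in the esophagus and 4.80, 4.48 and 5.36 in the stomach. It was well above background on 3 of 3 esophagus arrays and on no stomach array, and the difference was 3.02 (standard error 0.25, limma adjusted p = 0.000148). As a bound, the esophagus was at least 7.29-fold higher, and the difference was 2.07 with a normexp offset of 50 and 5.38 with the processed signal. The probe for the end of the longer transcript, A_55_P2167274, read 5.04, 4.85 and 5.12 in the esophagus and 4.75, 4.85 and 4.83 in the stomach, on no array well above background. A signal was thus measured in the shared part and not at the end of NM_001190483, though probes differ in how well they bind and the share of each transcript was not measured.

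*Pcsk6* (NM_011048, chr7:73195141-73195200), a convertase that binds the extracellular matrix, was higher in the stomach and differed most among mice. It read 13.14, 12.87 and 13.57 in stomach organoids of mice 1, 2 and 4 and 10.28, 9.71 and 6.78 in esophageal organoids. The tissues did not overlap, and the gap between them was 2.59. The mean difference was -4.27 (standard error 0.81, interval -6.15 to -2.40, limma adjusted p = 0.0118), or 19.3-fold toward the stomach, with an SD of 1.88 among esophagus arrays and 0.35 among stomach arrays (n = 3 each).

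The size of the *Pcsk6* difference turned on the esophagus array of mouse 4, which also was the only array on the second slide. Without this array, the comparison on the first slide alone, the difference was -3.20 (limma adjusted p = 0.000331), and without esophagus mouse 1 it was -4.95. Within mice it was -2.86, -3.16 and -6.80. A block for slide gave the same -3.20. The second slide held only the esophagus array of mouse 4, so slide and culture cannot be told apart here. The call was lost without stomach mouse 1 (limma adjusted p = 0.0542) and with trended, robust variances (limma adjusted p = 0.0594).

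*Pcsk7* (NM_008794, chr9:45737513-45737572), the convertase of this group most distant from *Furin*, read 8.94, 9.48 and 9.77 in the esophagus and 9.93, 10.11 and 9.85 in the stomach. The esophagus values all lay below the stomach values, by 0.08 at the nearest. The difference of -0.57 (interval -1.09 to -0.05) was not called after adjustment (limma adjusted p = 0.171).

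Over the 7 genes other than *Cpe*, 1 of 10 probes was called higher in the esophagus, where 5.94% of all probes were, and 3 of 10 higher in the stomach, where 6.22% of all probes were. The called probes belong to *Pcsk5* toward the esophagus and to *Cpd* and *Pcsk6* toward the stomach. In 6 of 10 probes the tissues did not overlap, against 28.6% of all probes, and 2 of these 6, in *Pcsk2* and *Pcsk7*, were not called. Of the 10 probes, 5 were well above background on all 6 arrays and 3, in *Pcsk1*, *Pcsk2* and *Pcsk5*, on none.

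**Figure D2:**
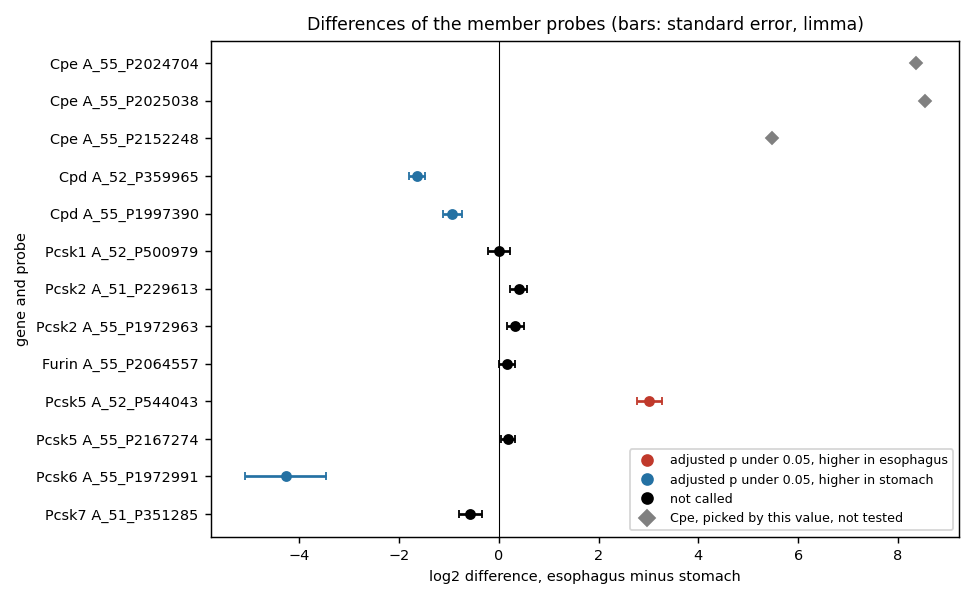
Log2 difference, esophagus minus stomach (horizontal axis), of each of the 13 probes, with bars for the standard error from limma. The *Pcsk5* probe A_52_P544043 at 3.02 is called toward the esophagus, *Cpd* and *Pcsk6* are called toward the stomach, and the *Cpe* points from 5.47 to 8.55 carry no test.

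Other genes of the route were taken from fixed lists and are represented by their brightest probe. Among all gene names, 7.15% were called toward the esophagus and 7.7% toward the stomach, with a median difference of 0.03. Among other convertases, *Pcsk4*, known from germ cells, read 9.07, 7.69 and 7.53 in the esophagus and 8.76, 9.25 and 8.43 in the stomach. The tissues overlapped, and the difference of -0.72 was not called (limma adjusted p = 0.359). *Mbtps1*, the site-1 protease that activates sterol regulators, had a difference of -0.10 (limma adjusted p = 0.807).

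Of 6 other carboxypeptidases of the family, 1 was called, toward the stomach. *Cpn1*, the catalytic subunit of plasma carboxypeptidase N, read 5.72, 6.02 and 5.33 in the esophagus and 9.33, 9.64 and 8.71 in the stomach (difference -3.54, limma adjusted p = 0.000115). The *Cpn1* difference was -2.85 with a normexp offset of 50 and -4.51 with the processed signal. *Cpm*, a membrane-anchored carboxypeptidase, had means of 9.28 ± 1.15 (esophagus) and 10.67 ± 0.15 (stomach; SD, n = 3 each) without a call (limma adjusted p = 0.132). None of these 6 was called toward the esophagus.

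Of 14 partners of the convertases and dense-core granule genes, 1 was called higher in the esophagus, 2 higher in the stomach and 11 neither way, with a median difference of -0.24. *Qpct*, which forms the pyroglutamate end of some peptides, read 7.66, 7.61 and 6.99 in the esophagus and was not well above background in the stomach, where it was at least 5.77-fold lower (limma adjusted p = 0.000153). Its difference of 2.60 was 1.70 with a normexp offset of 50 and 5.32 with the processed signal. *Ptprn*, a granule membrane protein, reached a level at least 4.29-fold higher in stomach organoids (limma adjusted p = 0.00205), and its difference of -2.28 was -1.41 and -4.61 under these settings. *Cadps2*, which primes granules for release, had a difference of -1.57 (limma adjusted p = 0.0277), which was not called with the mouse as a block (limma adjusted p = 0.0509). This call was also lost without any 1 of stomach mouse 1, stomach mouse 2, esophagus mouse 1 and esophagus mouse 2 (limma adjusted p = 0.119, 0.0998, 0.0617 and 0.0959), and with a normexp offset of 50 (difference -0.94, limma adjusted p = 0.0635), while the processed signal gave -3.32.

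*Pcsk1n*, the proSAAS inhibitor of *Pcsk1*, was well above background on all 6 arrays with a difference of 0.17 (limma adjusted p = 0.799). *Scg5*, the 7B2 chaperone of *Pcsk2*, was well above background on no esophagus and 2 of 3 stomach arrays, with a difference of -0.36 (limma adjusted p = 0.24). *Pam*, which amidates peptide ends, was 8.02 ± 0.27 and 7.64 ± 0.25 (SD, n = 3 each; limma adjusted p = 0.32).

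Hormone precursors, on which *Cpe* acts in endocrine cells, were mostly at background. Of 18 precursors, 12 were not well above background on any array, among them *Gast*, *Sst*, *Gcg*, *Gip* and *Cck*. The called gene of the list was *Tac1*, the precursor of substance P and neurokinin A, which read 11.49, 13.03 and 8.84 in the esophagus and 4.49, 4.99 and 4.67 in the stomach. No stomach array had it well above background, and the esophagus was at least 83.6-fold higher (difference 6.40, standard error 0.90, limma adjusted p = 0.00279). The *Tac1* difference was 5.45 without esophagus mouse 2, 7.54 without esophagus mouse 4, the array on the second slide, 5.21 with a normexp offset of 50 and 9.46 with the processed signal, and was called each time (limma adjusted p at most 0.0267). *Ghrl*, the ghrelin precursor, was well above background on all 6 arrays and overlapped between the tissues, at 6.55 ± 0.54 and 6.46 ± 0.69 (SD, n = 3 each; limma adjusted p = 0.933).

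Of 31 substrates of the *Furin* group of convertases, 7 were called higher in the esophagus, 10 higher in the stomach and 14 neither way, with a median difference of 0.10. Toward the esophagus, the receptor *Notch3* averaged 12.77 ± 0.43 against 9.34 ± 0.26 for stomach organoids (SD, n = 3 each), with a difference of 3.43 (limma adjusted p = 7.17e-05). The endocytic receptor *Lrp1* had a difference of 2.62 (limma adjusted p = 0.0136), which fell short without stomach mouse 1, stomach mouse 2 or esophagus mouse 2 (limma adjusted p = 0.0524, 0.0523 and 0.0544) and was 3.26 without esophagus mouse 4 and 1.21 with its 3 probes averaged, of which 2 were called. Toward the stomach, the growth factors *Tgfb3* and *Bmp4* had differences of -4.32 and -3.45 (limma adjusted p = 0.000164 and 0.000213). Of the 2 *Bmp4* probes 1 was called, and their average gave -1.68, while *Tgfb3* was -5.0 with the processed signal and *Bmp4* -4.05. The substrates thus held members on both sides, as the convertases did. For *Itga6*, *Itgav* and, among the granule genes, *Ptprn2*, a dimmer probe was called while the brightest was not. The called *Itga6* probe was higher in the stomach, opposite to its brightest probe (difference 0.57). The called probes of *Itgav* (higher in the esophagus) and *Ptprn2* (higher in the stomach) had the direction of their brightest probes.

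**Figure D3:**
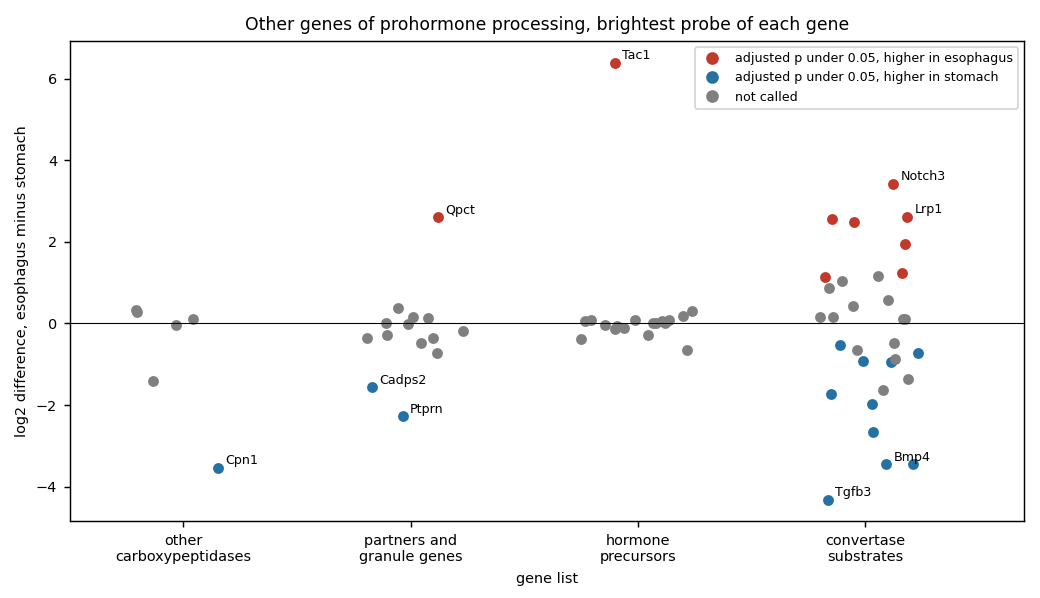
Log2 difference, esophagus minus stomach (vertical axis), of the brightest probe of each gene in 4 lists, spread sideways for legibility, with called genes colored by tissue. *Tac1* stands at 6.40 among hormone precursors that are otherwise near 0, and the substrates run from *Tgfb3* at -4.32 to *Notch3* at 3.43.

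*Cpe* is also made by endocrine, neural and mesenchymal cells, and markers of these cells were read on the same arrays. Of 9 endocrine markers, none was well above background on any esophagus array, including *Chga*, *Chgb*, *Neurod1* and *Insm1*, and the summed log2 level of the list, there a sum of background values, was 8.04 to 8.07. In the stomach the sum was 9.88 to 10.23, and *Isl1*, which read 9.61, 9.45 and 9.74 there, was the single marker well above background on all 3 arrays. *Isl1*, an endocrine and foregut transcription factor, was the called marker, at least 21.4-fold higher in the stomach (limma adjusted p = 1.99e-06), with a difference of -4.42 that became -3.49 with a normexp offset of 50 and -6.47 with the processed signal. Of 10 fibroblast and smooth muscle markers, none passed the background mark on all 3 arrays of either tissue. Their summed level was 8.14 to 8.61 in the esophagus and 8.26 to 8.33 in the stomach, and *Pdgfra*, *Pdgfrb*, *Lum*, *Des* and *Myh11* did not reach that mark on any array.

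Of 8 neural and glial markers, the glial lineage factor *Sox10* and the filament gene *Prph* were not well above background on any array. *Tubb3* and *Elavl4* were called higher in the esophagus (differences 4.37 and 0.92, limma adjusted p = 0.00271 and 0.0228) and *Snap25* higher in the stomach (-2.66, limma adjusted p = 0.0008). The *Elavl4* call was lost without stomach mouse 2, esophagus mouse 1 or esophagus mouse 2 (limma adjusted p = 0.0722, 0.0614 and 0.0703) and with the processed signal (limma adjusted p = 0.0696). The *Tubb3* difference was 5.0 without esophagus mouse 1 and 3.73 without esophagus mouse 2. The summed level of this list was 13.03 to 13.91 in the esophagus and 13.96 to 15.39 in the stomach. Of 6 immune and endothelial markers none was called. *Cd68*, *Cd3e*, *Pecam1* and *Kdr* were above the background mark on all 6 arrays and *Ptprc* and *Cdh5* on none. *Cd68* had a mean of 13.17 ± 1.5 in esophageal and 11.54 ± 0.72 in stomach organoids (SD, n = 3 each; limma adjusted p = 0.211), and the summed level of the list was 12.04 to 14.82 in the esophagus and 11.44 to 12.57 in the stomach. The part of cells expressing *Tubb3* or *Cd68* in the *Cpe* values was not tested.

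The genes most like *Cpe* were sought among the 15634 gene names with a brightest probe that passed background on all 6 arrays. None of the 6 squamous markers met this filter, so genes at background in the stomach could not be neighbors. The measure was the distance between profiles over the 6 arrays after each was centered on its mean. The 5 nearest were *Cbr2*, *Rcn1*, *2610528A11Rik*, *Lypd3* and *Nrg1*, at distances of 1.35, 1.39, 1.58, 1.79 and 1.88 log2 units. *Cbr2* is a carbonyl reductase, *Rcn1* a calcium-binding protein of the endoplasmic reticulum, *Lypd3* a surface protein of stratified epithelia and *Nrg1* a ligand of ERBB receptors. Their esophagus minus stomach differences were 7.86, 7.36, 9.64, 7.22 and 6.91. *2610528A11Rik* followed *Cpe* array by array most closely (Pearson's r 0.9999 over 6 arrays, against 0.9921 to 0.9978 for the others), a description in which the step between the tissues makes up nearly all of r.

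**Figure D4:**
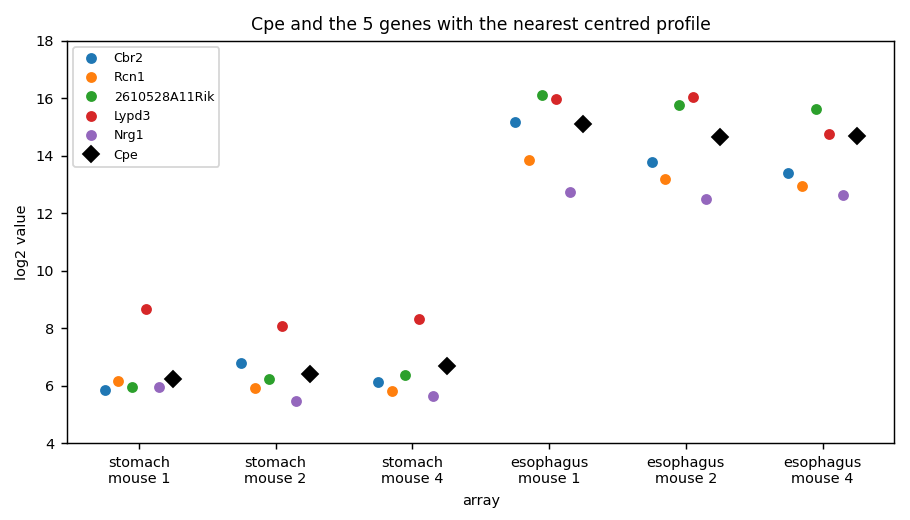
Log2 values (vertical axis) of *Cpe* (probe A_55_P2024704, black diamonds) and of the 5 genes with the nearest centered profiles on each of the 6 arrays. Each gene is higher on the 3 esophagus arrays than on the 3 stomach arrays, with differences from 6.91 for *Nrg1* to 9.64 for *2610528A11Rik*.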

How the data were processed

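The members and gene lists were chosen with earlier results of these data known. Spots were quantified by the authors in Feature Extraction 11.5.1.1, per the file headers, and the deposited scanner files hold spot and background intensities, not normalized between arrays, and flags. The authors' deposited log2 values were background corrected and quantile normalized by them. Rows of this table were matched to spots by feature number. Normexp (offset 15) on median intensities with quantile normalization came within 0.0726 log2 units of them at every spot (median 0.00433), and the empty cells were the outlier-marked spots. These log2 values, averaged over the spots of a probe, were fitted with limma 3.58.1 in R 4.3.3 (lmFit and eBayes, all 6 arrays, no block, Benjamini-Hochberg over 55681 probes). The fit was tested on simulated data. Summed levels are log2 of the summed linear values of a list's brightest probes.

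Named genes were the members, up to 2 called genes of each list with the largest difference in each direction (not all are described), and the 5 genes nearest to *Cpe*. Other genes named from the lists, such as *Pcsk4*, *Mbtps1*, *Cpm*, *Pcsk1n*, *Scg5*, *Pam*, *Ghrl* and the uncalled markers, were chosen after their values were seen. Some listed genes are not reported here. The labels carry the same mouse numbers in both tissues, but do not state that a number is the same animal. Differences within mice pair the arrays by these numbers. Deviations from the tissue means of the 2 arrays of mice 1, 2 and 4 correlated across probes with r = 0.025, 0.0119 and -0.00787. Arrays with unlike numbers gave r from -0.0726 to 0.0405. Where the labels do not say that cultures were separate beyond the animal, p-values measure the spread between these arrays. The alternatives were normexp (offset 16 or 50) on mean intensities with quantile normalization, the processed signal scaled to the 75th percentile, a filter on dim probes, eBayes with trend and robust options, a block for mouse or for slide, averaged probes, each array left out, and the methods' threshold, p under 0.05 unadjusted with 1.5-fold.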

Additional observations from a re-analysis of the deposited data

How the results depend on the processing

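Of the 10 tested member probes, 1 was called higher in the esophagus under all 15 alternatives. The 3 called higher in the stomach became 1 to 3 with each array left out in turn (1 without stomach mouse 1, from the loss of *Pcsk6* and the dimmer *Cpd* probe) and 2 with trended and robust variances. With the probes of a gene averaged, which counts genes, both stomach genes were called, *Cpd* at -1.28 (limma adjusted p = 0.00216) and *Pcsk6* at -4.27 (limma adjusted p = 0.0167). Of the 116 fixed-list genes other than the members, 17 were called higher in the esophagus (13 to 20 over the alternatives). Toward the stomach, 23 were called (18 to 27). Among all gene names, 7.15% and 7.7% were called in these directions. The 17 include the 6 squamous markers and the 23 include the 7 columnar markers, which were listed as markers of these epithelia. With the mouse as a replicate block, the member probes called were 1 toward the esophagus and 3 toward the stomach. The list genes called were 18 and 21. The block changed no member's call and, of the named list genes, that of *Cadps2* alone. The *Cpe* differences moved with the treatment of background, from 7.83, 7.97 and 4.35 with an offset of 50 to 9.01, 9.26 and 8.45 with the processed signal, and averaging all 3 probes gave 7.46. Averaging both *Pcsk5* probes gave 1.61 (limma adjusted p = 0.000583). The brightest *Cpd* probe ran from -1.73 to -1.28 and *Pcsk6* from -4.95 to -3.20. Signal over background limits the dim probes of *Pcsk1*, *Pcsk2* and *Pcsk5*, for which these arrays could show no difference below the background.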
